A study of Mus musculus with 3 samples.

Results

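The LIM homeobox factors described here are 10 mouse genes, Lhx1, Lhx2, Lhx5, Lhx6, Lhx8, Lhx9, Isl1, Isl2, Lmx1a and Lmx1b. They were chosen by family, with earlier results of these data known. All 10 had a probe on the array, 11 probes in all, with 2 for Lhx9. Of the 10, 9 gave signal well above background on all 3 arrays, among 13184 genes that did so on at least 1, and Lhx6 did so on none. The family has 12 LIM homeobox genes on this array, and the other two, Lhx3 and Lhx4, are given beside the members.

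RNA came from whole embryos of mixed background, 3 embryos to a pool, and each pool was hybridised to 1 single-colour Agilent array. One group was MafF-/-:MafG-/-:MafK-/- at E10.5 (triple null). Another was MafF-/-:MafG+/+:MafK-/- at E10.5 (MafG-intact), and the last had that same genotype at E9.5. MafF and MafK were therefore absent from all 3 pools, and no pool was wild type. Each group being 1 array, replicate error is unknown, no difference was tested, and each statement compares these arrays rather than the conditions.

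LIM homeodomain proteins are transcription factors with paired LIM domains in front of a DNA-binding homeodomain. The LIM domains bind the adaptor Ldb1, which joins factors into larger complexes, and LIM-only proteins of the Lmo family compete for the same adaptor. Combinations of these factors specify classes of motor neurons and interneurons, and single members act in the eye, heart, limb, kidney and gonad.

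A level is the log2 of the background-subtracted spot intensity minus the 75th percentile of its array, and levels of different probes are not comparable with one another. Mafg was at -7.74 in the triple null, not well above background, at 0.48 in MafG-intact E10.5 and at 1.03 in E9.5, which puts the triple null at least 173-fold below its stage match. From 69.1% to 70.4% of probes were well above background. Embryo sex differed between pools: Xist, the X inactivation transcript, gave signal (0.18) in MafG-intact E10.5 alone, and the Y-linked Ddx3y was at 0.41 in the triple null and 0.17 in E9.5 but not above background in MafG-intact E10.5. Sex thus changes together with both comparisons that use this array, and its part in the values was not tested. Triple null against E9.5 does without this change of sex, but those pools differ in both MafG genotype and age, which cannot be told apart there. Of 12 markers of embryonic neural, heart, somite, blood, vessel and endoderm tissue, 12 were above background on all 3 arrays. In the triple null at E10.5, 4 of them were at least 2-fold lower than in MafG-intact, Tubb3 (-1.86), Afp (-1.26), Hba-x (-1.06) and Hbb-y (-1.04), and 2 were higher, Myl7 (1.03) and Actc1 (1.01). Of all 12529 genes, 4.47% were lower and 0.982% higher by that much. Neuronal, liver or yolk sac, embryonic globin and cardiac muscle markers thus differed alongside the members, and their part in the values was not tested.

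In the triple null pool at E10.5, 5 LIM homeobox transcripts were at least 2-fold lower than in the MafG-intact pool of the same age. Lhx8 was 5.66-fold lower, Lhx1 3.13-fold, Isl2 2.73-fold, Lhx5 2.56-fold and Lhx9 2.53-fold. These 5 of 9 measured members were at least 2-fold lower and none was at least 2-fold higher, beside 4.47% of all 12529 genes lower and 0.982% higher by that much (5.45% in either direction). Over the 9 members the median log2 difference was -1.34, against 0.06 over all genes, and -0.99 for the members with normexp background correction. Lhx2 (-0.90), Isl1 (-0.49), Lmx1b (-0.41) and Lmx1a (0.11) were less than 2-fold apart. In bulk RNA of whole embryos, fewer cells of a type and less RNA per cell cannot be told apart.

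**Figure D1:**
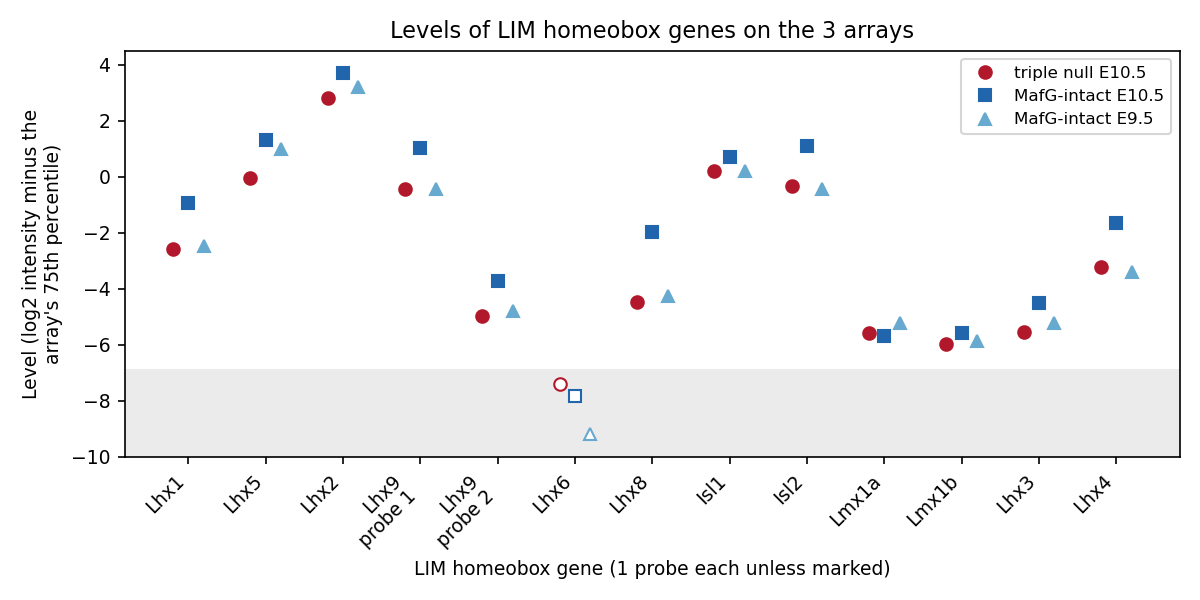
Level of each LIM homeobox gene (vertical axis, log2 intensity minus the 75th percentile of the array) on the 3 arrays, 1 point per array and probe. Filled points were well above background, open points were not, and the grey band lies below the level (-6.89) under which no probe was well above background on the E9.5 array, the highest such limit of the 3; the MafG-intact E10.5 point is the highest of the 3 for every probe that was above background except that of Lmx1a.

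The closely related genes Lhx1 and Lhx5 were both lower in the triple null than in its MafG-intact stage match, but stood differently against E9.5. Lhx1, which acts in the early node, in the intermediate mesoderm that forms the kidney and in spinal neurons, was at -2.58 in the triple null, -0.93 in MafG-intact E10.5 and -2.46 in MafG-intact E9.5. Its probe was printed in 10 places on each array, and the SD among spots was 0.10, 0.05 and 0.05 in the same order, the last over the 8 spots left after outlier marks. The highest triple null spot (-2.45) lay below the lowest MafG-intact E10.5 spot (-0.99), while the spots of the triple null and E9.5 arrays overlapped. These spots share 1 labelled RNA per array, so their spread covers printing and scanning and not embryos.

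Lhx5, a factor of the developing hippocampus, forebrain and spinal interneurons, was at -0.03 in the triple null, 1.33 in MafG-intact E10.5 and 0.97 in MafG-intact E9.5. The triple null pool was thus the lowest of the 3, and the MafG-intact pools were 0.35 apart. Against E9.5 the triple null was 2.01-fold lower, rank 66 from the lowest of 12521 genes, and with normexp background correction the log2 difference was -0.96, short of 2-fold. Lhx5 has 1 probe with 1 spot.

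**Figure D2:**
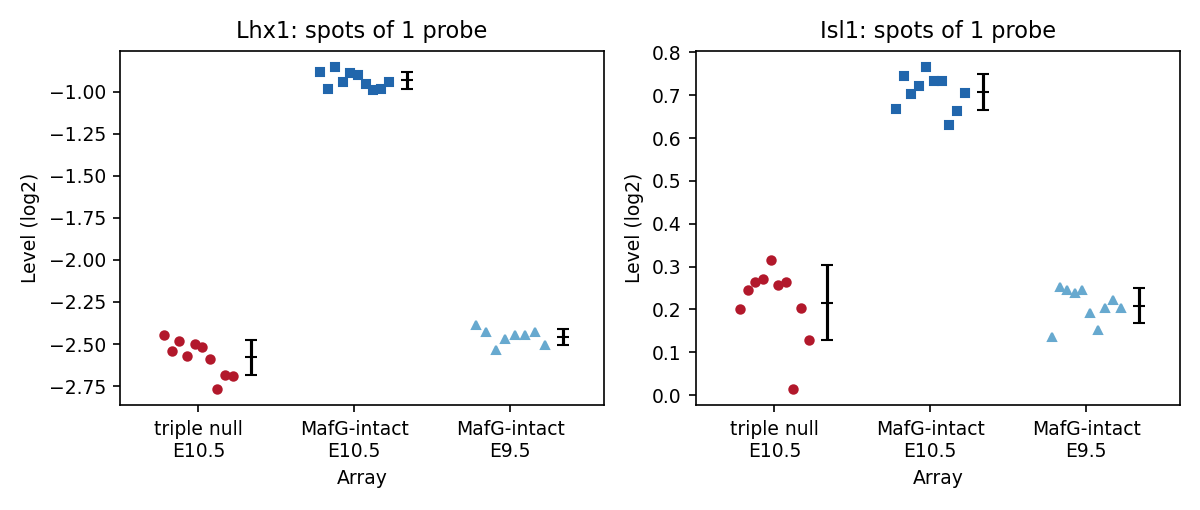
Levels (vertical axis, log2) of the single spots of the Lhx1 and the Isl1 probe on each array, with the mean and SD of the spots at the right of each cloud. The triple null and E9.5 spots share a range in both panels, and every MafG-intact E10.5 spot lies above them.

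Lhx2 and Lhx9 form another related pair. Lhx2, needed for the eye and the forebrain, was at 2.80 in the triple null, 3.69 in MafG-intact E10.5 and 3.22 in MafG-intact E9.5. It was 1.86-fold lower in the triple null than at the same age and 1.34-fold lower than at E9.5, both short of 2-fold. Lhx9, a gene of the early gonad, limb bud and forebrain, was read by 2 probes. The brighter probe was at -0.44, 1.02 and -0.44 in the array order used above, and the dimmer at -4.96, -3.73 and -4.79. Both probes put the MafG-intact E10.5 pool highest, with triple null differences of -1.46 and -1.23; their mean was -1.34, or -0.99 with normexp, which falls short of 2-fold.

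Lhx6 and Lhx8 both mark ventral forebrain and oral mesenchyme. Lhx8, linked to forebrain cholinergic neurons and the palate, was at -4.46 in the triple null, -1.96 in MafG-intact E10.5 and -4.27 in MafG-intact E9.5. Its triple null difference of -2.50 at E10.5 was the most negative of the members, rank 52 from the lowest of 12529 genes. In intensity units the probe read 48.9, 364 and 55.2, where the median local background was 44.0 to 47.0, so the lower arrays are close to the dim end; with normexp the difference was -1.61. Lhx6, a gene of migrating cortical interneurons, read 6.39, 6.16 and 1.81 units and was not well above background on any array, so no fold is given.

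Isl1 and Isl2 differed in size and not in order. Isl1 is expressed in motor and sensory neurons and in the second heart field. Its probe, also printed 10 times, was at 0.22 (SD among spots 0.09) in the triple null, 0.71 (0.04) in MafG-intact E10.5 and 0.21 (0.04) in MafG-intact E9.5. The E10.5 spots of the MafG-intact pool, from 0.63 to 0.77, did not overlap those of the triple null, from 0.01 to 0.32, but the difference was only 1.40-fold. Isl2, which acts later in motor and sensory neurons and in retinal ganglion cells, was at -0.33, 1.11 and -0.45 in the same order, a triple null difference of -1.45 at E10.5. Isl2 thus differed about as much as Lhx5 and Lhx9, and Isl1 much less.

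Lmx1a and Lmx1b were both under 2-fold apart in every comparison. Lmx1a, a roof plate and midbrain dopaminergic factor, was at -5.57 in the triple null, -5.69 in MafG-intact E10.5 and -5.21 in MafG-intact E9.5. Lmx1b, which specifies the dorsal limb and serotonergic neurons, was at -5.98, -5.57 and -5.88. Both probes were dim, at 17.1 to 30.0 intensity units. Probes printed 10 times had a median SD among spots of 0.12 to 0.15 at levels from -6 to -4, against 0.05 to 0.06 above 0. The Lmx1b difference at E10.5 of -0.41 turned to 0.25 with normexp, so its direction is not settled.

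Lhx3 and Lhx4, pituitary and motor neuron genes outside the 10, were also highest in the MafG-intact E10.5 pool. Lhx4 was at -3.22 in the triple null, -1.65 in MafG-intact E10.5 and -3.39 in MafG-intact E9.5, and was 2.97-fold lower in the triple null at E10.5. Lhx3 was dim, at -5.53, -4.53 and -5.23. Its difference of -1.01 at E10.5 was just past 2-fold and dropped to -0.91 with quantile normalization, -0.98 with spike-in scaling and -0.12 with normexp. With them, 7 of 11 measured LIM homeobox genes were lower by 2-fold or more in the triple null at E10.5. Of all 12529 genes 4.47% were. Among the 7, Lhx3 and Lhx9 fell short of 2-fold with normexp.

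**Figure D3:**
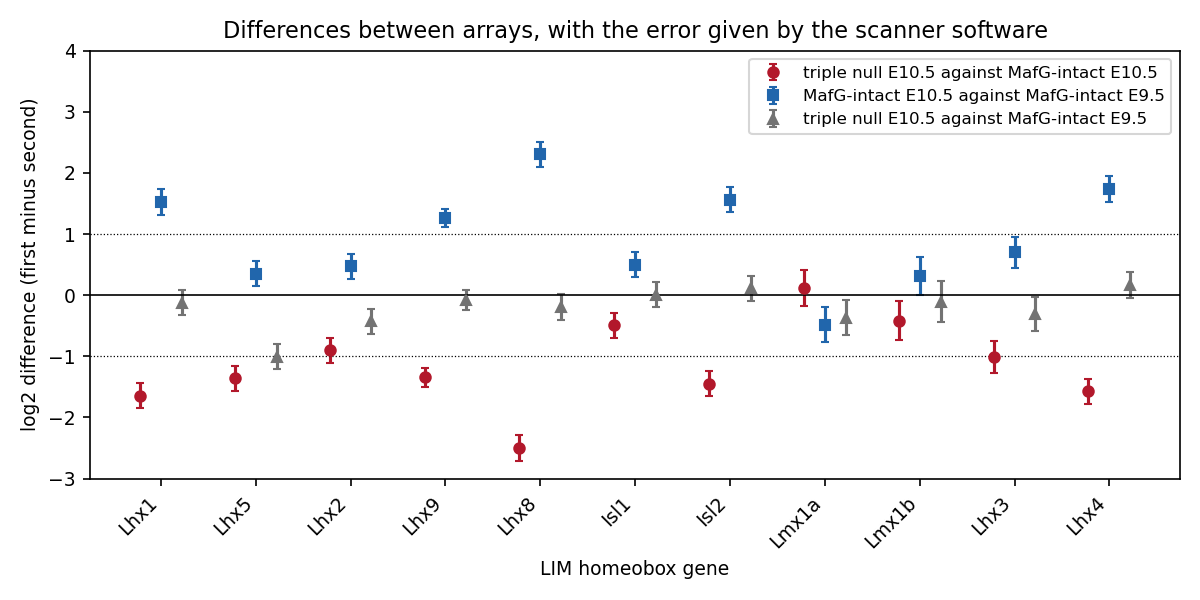
Log2 difference (vertical axis, first array minus second) of the 11 measured LIM homeobox genes in each comparison. Error bars are the software error, the scanner software's own spot error combined over both arrays compared, which leaves out differences between embryos. Dotted lines mark 2-fold, and Lhx5 is the gene on the lower line in triple null against E9.5.

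Promoters are shown for 4 of the 5 members lower by 2-fold or more in the triple null at E10.5 (Lhx1, Lhx8, Lhx9 and Isl2, without Lhx5) and for Isl1 as the near relative of Isl2 that was not. Each is the RefSeq window of 300 bases, 250 before to 50 after the start, in build GRCm38.p6, which is not the build of the array. Capitals mark matches on either strand to TAATTA (a homeodomain core), CANNTG (the E-box of bHLH factors), ATTGT (a SOX core) or TGACNNNGC (the core of the antioxidant response element, to which small Maf heterodimers bind). The windows are chr11:84525485-84525784 (minus strand) for Lhx1, chr3:154330511-154330810 (minus) for Lhx8, chr1:138842395-138842694 (minus) for Lhx9, chr9:55540899-55541198 (plus) for Isl2 and chr13:116309639-116309938 (minus) for Isl1.
Lhx1: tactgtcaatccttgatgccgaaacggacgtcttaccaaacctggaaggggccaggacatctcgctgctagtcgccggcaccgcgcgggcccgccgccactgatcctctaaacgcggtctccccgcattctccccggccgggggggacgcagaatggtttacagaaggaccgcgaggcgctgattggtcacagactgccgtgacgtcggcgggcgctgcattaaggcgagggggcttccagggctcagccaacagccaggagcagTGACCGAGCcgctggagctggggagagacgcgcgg
Lhx8: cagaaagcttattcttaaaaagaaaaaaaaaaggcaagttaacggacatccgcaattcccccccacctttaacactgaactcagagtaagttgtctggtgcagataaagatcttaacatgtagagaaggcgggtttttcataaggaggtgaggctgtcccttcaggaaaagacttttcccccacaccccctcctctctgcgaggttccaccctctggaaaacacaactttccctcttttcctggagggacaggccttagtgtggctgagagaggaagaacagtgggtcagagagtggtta
Lhx9: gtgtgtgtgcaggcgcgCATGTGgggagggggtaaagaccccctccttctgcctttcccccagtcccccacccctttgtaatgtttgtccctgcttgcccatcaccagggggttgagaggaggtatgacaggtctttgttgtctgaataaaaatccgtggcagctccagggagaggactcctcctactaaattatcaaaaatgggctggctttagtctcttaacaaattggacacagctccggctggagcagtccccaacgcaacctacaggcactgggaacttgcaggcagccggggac
Isl2: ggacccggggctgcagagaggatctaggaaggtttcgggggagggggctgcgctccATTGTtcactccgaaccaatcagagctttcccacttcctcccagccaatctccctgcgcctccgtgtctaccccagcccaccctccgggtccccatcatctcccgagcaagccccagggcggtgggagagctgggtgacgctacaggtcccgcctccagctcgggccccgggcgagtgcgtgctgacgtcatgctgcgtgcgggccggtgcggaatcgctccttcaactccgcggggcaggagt
Isl1: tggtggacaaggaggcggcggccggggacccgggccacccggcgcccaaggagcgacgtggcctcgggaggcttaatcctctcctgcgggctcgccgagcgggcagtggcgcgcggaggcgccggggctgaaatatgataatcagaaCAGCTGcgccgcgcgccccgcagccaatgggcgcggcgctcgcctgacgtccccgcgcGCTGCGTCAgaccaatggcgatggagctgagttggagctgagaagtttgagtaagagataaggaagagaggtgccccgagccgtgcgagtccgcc

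These windows held few of the letters searched, and those of Lhx1, Lhx8, Lhx9 and Isl2 shared none of them. Lhx5 was not searched. Lhx1 had TGACNNNGC at 16 to 24 after the start, Lhx9 an E-box at -233 to -228, Isl2 ATTGT at -194 to -190 and Lhx8 no match, while Isl1 had both an E-box (-103 to -98) and TGACNNNGC (-45 to -37). No matches overlapped. Over the 12 windows listed for 9 member genes, TGACNNNGC was in 3, CANNTG in 6, ATTGT in 2 and TAATTA in 0; of all 32851 windows the shares were 12.4%, 72.3%, 31.0% and 5.29%. The windows of Lhx1, Isl1 and Isl2 were rich in CG pairs, with 31, 37 and 23, against a median of 7 over all windows, and those of Lhx8 and Lhx9 had 4 and 6. A match is a description of letters, not of binding.

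Between the MafG-intact pools, 4 of the 5 members that were lower in the triple null at E10.5 stood higher at the later age, Lhx5 being the exception, and these pools also differ in sex. Lhx8 was 4.94-fold higher at E10.5 than at E9.5, Isl2 2.95-fold, Lhx1 2.88-fold and Lhx9 2.40-fold. These 4 of 9 measured members were at least 2-fold higher and none was at least 2-fold lower, beside 4.12% of 12514 genes higher and 1.07% lower (5.19% in either direction). With normexp, the Lhx8 log2 difference of 2.30 became 1.54 and the Lhx9 difference of 1.26 became 0.89, short of 2-fold. Isl1 (0.50), Lhx2 (0.47), Lhx5 (0.35) and Lmx1b (0.31) were on the higher side by less than 2-fold, Lmx1a was at -0.48, and Lhx4 (1.74) and Lhx3 (0.70) were on the higher side. With normexp Lmx1b turned to -0.32 and Lhx3 came to 0.01, so neither has a settled direction. The members' median was 0.50, against -0.05 over all genes. This comparison and that of the triple null at E10.5 share the MafG-intact E10.5 array, so their opposite signs are not independent of each other.

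Set beside the younger MafG-intact pool, the triple null E10.5 pool held similar levels of most members, as it did of most genes. Lhx5 was the 1 member of 9 at least 2-fold lower and none was at least 2-fold higher, beside 0.527% and 0.256% of 12521 genes (0.783% in either direction). For 6 members the difference was under 0.2 on the log2 scale: Isl1 (0.01), Lhx9 (-0.08), Lmx1b (-0.10), Isl2 (0.11), Lhx1 (-0.12) and Lhx8 (-0.20). Most genes were this close: of all 12521, 4640 lay from -0.2 to 0 and 5132 from 0 to 0.2. Lhx2 was at -0.42, rank 385 from the lowest, and Lmx1a at -0.37. Extraembryonic markers also differed between these pools, with Spp2 at -3.62, Amn at -2.04, Rhox5 at -1.12 and Prl8a2 at 0.41. Of the 9 listed, 3 were above background on all 3 arrays, with summed levels of 0.898 in the triple null, 0.864 in MafG-intact E10.5 and 2.30 in E9.5 (multiples of each array's 75th percentile). Tpbpa, Gcm1 and Prl3c1 were above it on none, and Cubn and Prl3d1 had no probe matched. Whether extraembryonic tissue bears on the LIM homeobox values was not tested.

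**Figure D4:**
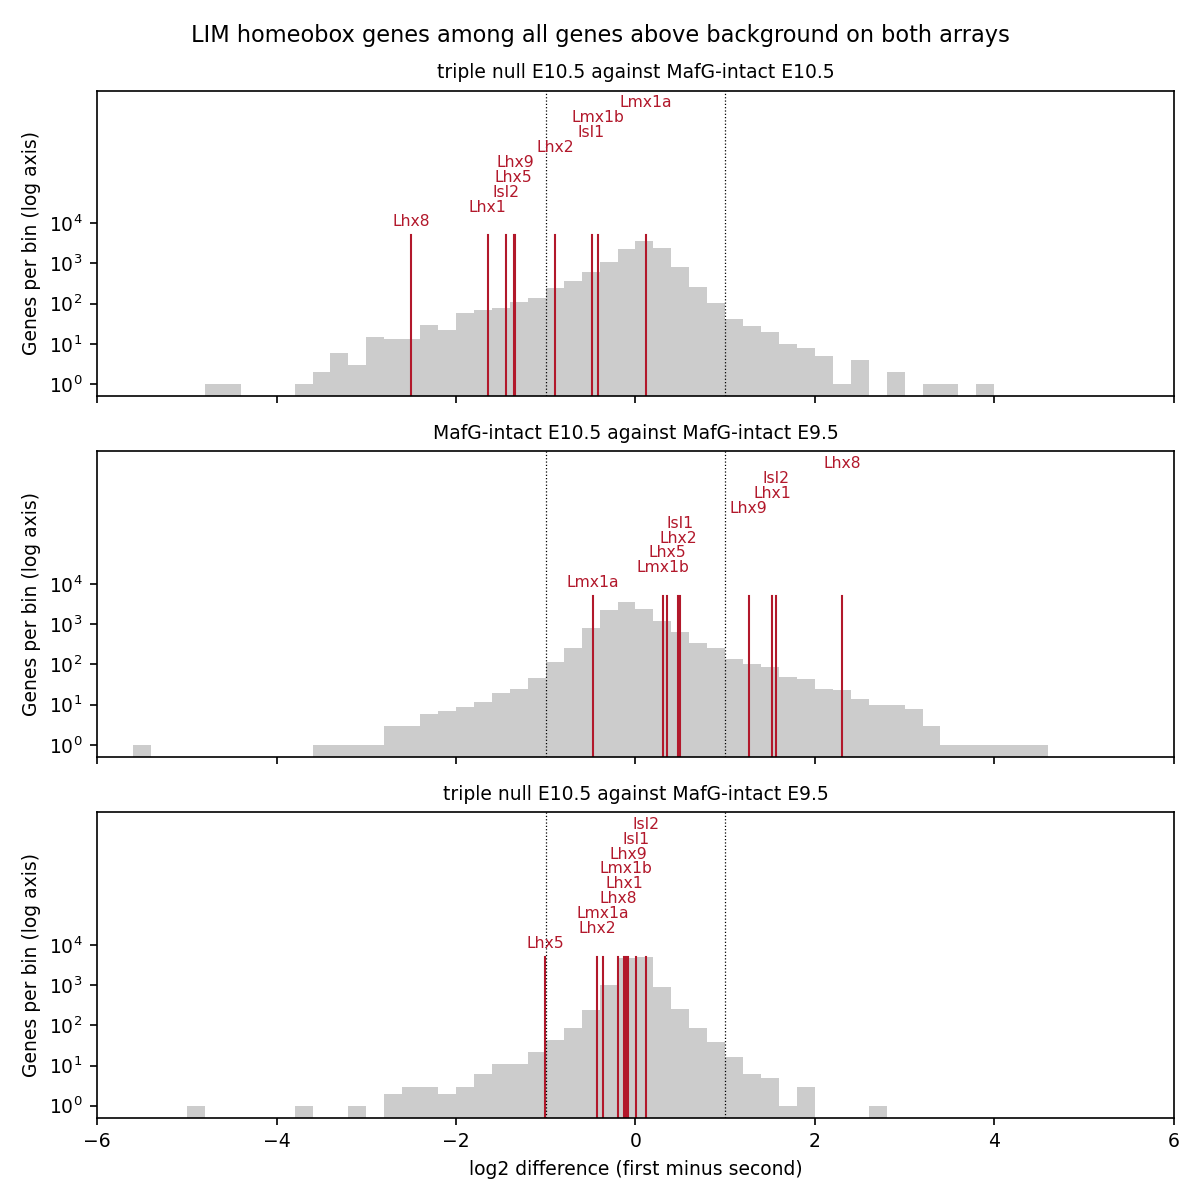
Number of genes (vertical log axis) by log2 difference (horizontal axis, bins of 0.2, first array minus second) over genes above background on both arrays, with the 9 measured members as red lines. In the upper panel 5 members lie left of the 2-fold line, in the middle panel 4 lie right of it, and in the lower panel Lhx5 alone lies past it.

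The LIM cofactors were within 2-fold at E10.5. Of 10 genes, Ldb1, Ldb2, Ssbp2, Ssbp3, Ssbp4, Rlim and Lmo1 to Lmo4, none reached 2-fold in the triple null against its stage match, and the median was -0.16. Of all 12529 genes only 5.45% did, so finding none among 10 does not set the cofactors apart. The adaptor Ldb1 was at 1.92, 1.92 and 1.99 in the same array order. Lmo1, a LIM-only gene, was the 1 of 10 at least 2-fold apart between the MafG-intact days (1.02), with -0.85 in the triple null at E10.5. Between those days 5.19% of all 12514 genes were that far apart.

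General neuronal genes were also highest in the MafG-intact E10.5 pool. All 8 pan-neuronal genes were lower by 2-fold or more in the triple null at E10.5, with a median of -2.25 and differences from -2.53 to -1.81. By comparison, 4.47% of all 12529 genes were lower by that much. The widest were the microtubule gene Dcx (-2.53), the neurofilament gene Nefm (-2.36), the internexin gene Ina (-2.34) and the stathmin gene Stmn2 (-2.30). Their summed level was 9.03 in the triple null, 37.5 in MafG-intact E10.5 and 9.29 in MafG-intact E9.5, and all 8 were above background on every array. Lhx8 lay within the range of these 8 differences, and the other 8 measured members were closer to 0 than all of them. Neural progenitor genes had a median of -0.30, with 1 of 8, the radial glial lipid carrier Fabp7 (-1.44), at least 2-fold lower. How far neuron content accounts for the members' values was not tested.

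Genes of the neurons that LIM factors specify were lower in part. In the motor neuron list, 3 of the 10 measured genes were lower by 2-fold or more in the triple null at E10.5, with a median of -0.45: the choline transporter gene Slc5a7 (-1.85) and the factor genes Onecut2 (-1.15) and Onecut1 (-1.08). The other 7 were less than 2-fold apart, from Mnx1 (-0.88) to Olig2 (0.57), both motor neuron specification factors. The vesicular acetylcholine transporter gene Slc18a3 was above background only in MafG-intact E10.5, at least 2.48-fold above the triple null. In the sensory and spinal interneuron list, 2 of 5 were at least 2-fold lower, Barhl1 (-1.41) and Atoh1 (-1.21), and the highest was Evx1 (0.90). Tlx3, above background only in MafG-intact E10.5, was lower in the triple null by at least 4.39-fold. Of the 12 genes in that list, 4 had no probe matched. Slc5a7 and Atoh1 were dim in the triple null, at -6.29 and -6.22, where the lowest level well above background was -6.95. Probes printed 10 times had a median SD among spots of 0.33 under -6 on that array.

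In the lists of other tissues where members act, most genes were within 2-fold, as were most genes on the arrays. Of all 12529 genes, 5.45% were at least 2-fold apart in the triple null at E10.5. Counts of 1 or none in lists this short do not set them apart. The roof plate and midbrain list had a median of -0.25, with 2 of 11 lower by 2-fold or more in the triple null at E10.5. These were tyrosine hydroxylase Th (-1.82) and the dopaminergic factor Pitx3 (-1.35), which was dim in the triple null at -5.94. The forebrain and eye list had 1 of 13 measured genes at least 2-fold lower and a median of -0.23. The pharyngeal arch list had 1 of 8, Gsc (-2.67), with a median of -0.02. None of 10 limb bud genes was 2-fold apart, with Tbx5 the farthest at 0.65. In the gonad and kidney list Pax8 was 1 of 9 at least 2-fold higher (1.28) and none was at least 2-fold lower.

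The second heart field list had a median of 0.16, with Nkx2-5 higher (1.01) and Shox2 lower (-1.62), and Isl1, not counted in that list, was at -0.49. Between the MafG-intact days, the medians were 2.32 for pan-neuronal genes with 8 of 8 at least 2-fold higher, 0.32 for motor neuron genes with 4 of 10, and from -0.25 to 0.18 for the other lists of neural, arch, limb, urogenital and heart genes. Against E9.5, no gene of the motor neuron, interneuron, forebrain, midbrain and arch lists was at least 2-fold apart in the triple null. Nor was any gene of the limb, urogenital, heart, pan-neuronal and progenitor lists. Of all 12521 genes only 0.783% were, so finding none in lists this short does not set Lhx5 apart. Lhx5 was just past 2-fold lower there, and short of it with normexp (-0.96).

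**Figure D5:**
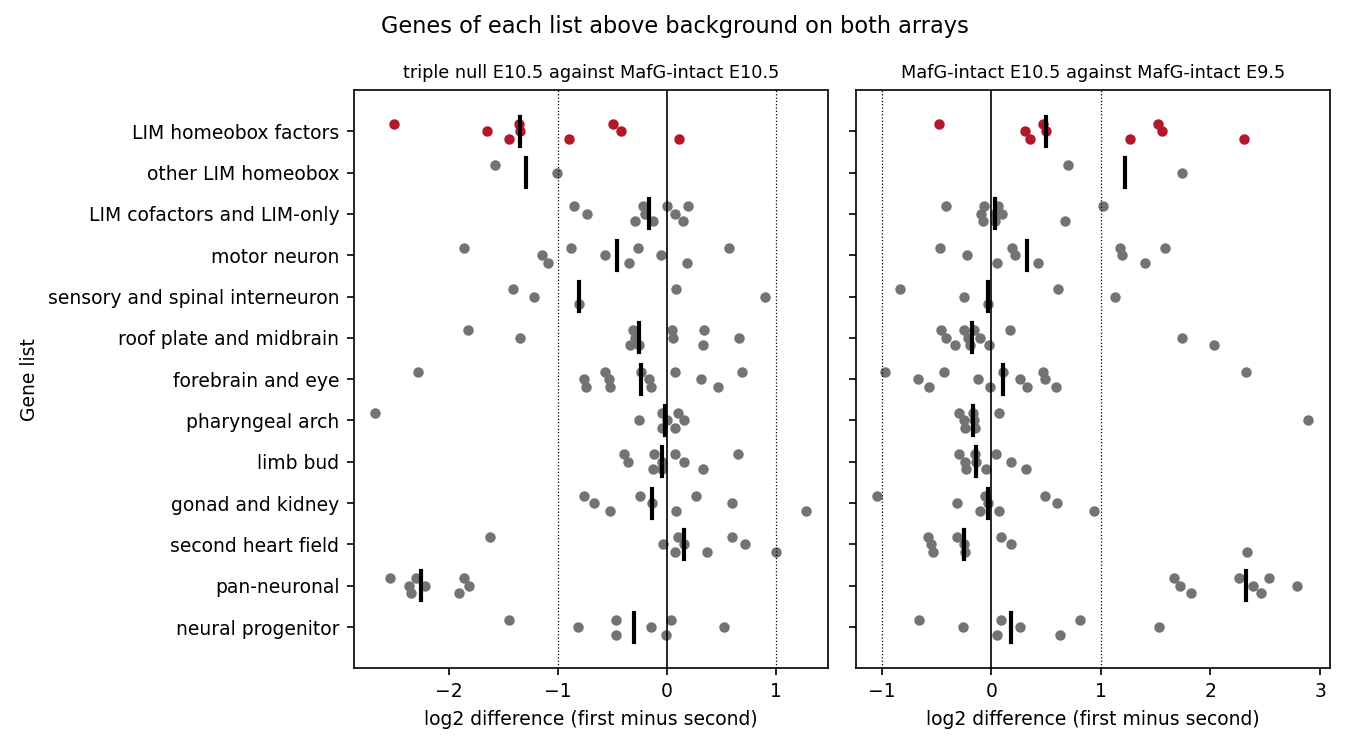
Log2 difference (horizontal axis, first array minus second) of each gene above background on both arrays, by gene list; red points are the 9 members, grey points the other genes and black bars the medians. Pan-neuronal genes all lie past 2-fold in both panels, LIM homeobox factors lie partly past it, and the cofactors centre near 0.

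Members and genes with clone or predicted names were left out of a search for a like pattern. It covered 6147 genes above background on all 3 arrays and at or above the median level of such genes. Those closest to the members' median profile (-1.34 for the triple null at matched age and 0.50 between the MafG-intact days) were Afp (distance 0.09), Aqp3 (0.21), Slit2 (0.34) and Acp5 (0.36). Of the members themselves only Lhx5 (0.14) was that near. Lhx1, Lhx8 and Isl2 had larger differences than this median in both comparisons, and Lmx1b had smaller ones. Isl1 had a smaller one at matched age (-0.49) and the median itself between the days. Lmx1a (0.11 and -0.48) had the opposite sign in both, at a distance of 1.75.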

How the data were processed

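Per the labels, total RNA of pooled embryos was amplified with Cy3 label for 1-colour arrays. The authors deposited scanner output, a background-subtracted spot intensity on a linear scale with no scaling between arrays. Per the file headers it was read with Agilent Feature Extraction 9.5.3.1 (protocol GE1-v5_95_Feb07, design 014868, annotation build mm7), and all arrays came from 1 slide and 1 scan. The value table the authors deposited holds the same intensity, rounded (largest difference 0.497%).

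Here log2 intensity was taken minus each array's 75th percentile (1078, 1420 and 1064) over 43379 non-control spots. Outlier spots were left out and spots of a probe averaged. No spot was saturated. Of 41170 probes kept, 22950 took 1 symbol through their accession in a RefSeq table of GRCm38.p6. A gene's level is the mean of its probes above background on 1 array or more. A gene above background on both arrays and at least 2-fold apart was counted; one above background on a single array has a bound, taken on the dim array from the lowest signal well above background, or from the gene's signal there if greater. "Software error" starts from the error Feature Extraction gives each spot. It was put on the log2 scale, averaged over the spots of a probe and combined over the probes and both arrays compared. The steps were tested on simulated data.

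The members, gene lists and comparisons were chosen with earlier results of these data known, and the motif TGACNNNGC was added after the values were seen. The genes named are the members, Lhx3, Lhx4, Mafg, up to 4 of each list past 2-fold (or the 1 farthest apart) and the nearest profiles, less those not reported here; Slc18a3, Tlx3, Mnx1, Olig2, Evx1, the sex-linked genes, Ldb1, the tissue markers past 2-fold and the extraembryonic markers were named in addition. Alternatives were normexp (limma 3.58.1 in R 4.3.3, offset 50, on median spot and background signals, as the files have no mean spot signal), quantile normalization, scaling on detected genes or spike-in probes, other filters, the brightest probe, the value table and thresholds of 3-fold and 1.5-fold. Other work used Python 3.11.15, pandas 2.3.3, numpy 2.4.6 and matplotlib 3.10.9.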

Additional observations from a re-analysis of the deposited data

How the results depend on the processing

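No paired analysis was possible because each group is 1 array. Over all genes, the count at least 2-fold apart was 683 for the triple null at matched age, 650 for MafG-intact E10.5 against E9.5 and 98 for the triple null against E9.5. It moved to 267, 255 and 27 with normexp, 1242, 1227 and 517 with no filter on dim probes, 273, 242 and 28 at 3-fold, and 1734, 1701 and 379 at 1.5-fold. At 3-fold, 2 members were lower in the triple null at E10.5, beside 240 of all 12529 genes. In MafG-intact E10.5, 1 member was higher than at E9.5, beside 195 of 12514 genes. In the triple null against E9.5, 0 members were lower, beside 23 of 12521 genes. With normexp, 0 members were at least 2-fold lower against E9.5, since Lhx5 fell just short. With no filter, 1 member, Lhx6, came out higher in the triple null against E9.5, from values not above background. The same gene took the members higher in MafG-intact E10.5 than at E9.5 from 4 to 5 with no filter. No member past 2-fold changed sign under any of the 10 settings. The cause was not tested. The number of arrays, 1 per group, limits every statement, since spot errors hold no variation between embryos.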
